A study of Mus musculus with 6 samples.

Results

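The 34 genes described here carry out mitosis: cyclins and kinases that start it, checkpoint proteins that time it, kinetochore proteins and motors that move chromosomes, and the machinery that splits the cell. They were chosen by name as mitotic kinases, kinesins, kinetochore and spindle genes, and all 34 were found once among the 38293 genes listed and were kept among the 12751 genes tested. RNA was sequenced from 6 tumors of Eμ-Myc mice, in which a c-Myc transgene driven by the immunoglobulin heavy chain enhancer gives rise to B-cell tumors. Every mouse, whichever its miR-146a genotype, carried that transgene on the strain given as C57BL6. The 2 miR-146a-deficient tumors (miR-146a-/-, a knockout of the microRNA gene carried by every cell of the mouse) were thymic tumors of mice aged 11 and 10 weeks whose labelled sex was female. The 4 miR-146a-sufficient tumors (miR-146a+/+) came from males. Sufficient tumors 1 and 2 were neck nodes from mice of 18 and 16 weeks, and sufficient tumors 3 and 4 were thymic tumors from mice of 10 weeks. Each tumor was a suspension of whole tumor cells, with no sort described in the sources used here. The comparisons asked whether the mitotic program differed between the genotypes and, within the sufficient mice, between tumor sites.

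Mitosis genes are switched on late in the division cycle. In resting and early cycling cells the DREAM complex keeps many of them silent, and B-Myb and Foxm1 then drive them in G2, partly through promoter elements called the cell cycle genes homology region and the CCAAT box. Cdk1 with cyclin B starts mitosis, the spindle checkpoint holds it until every kinetochore is attached, and the anaphase-promoting complex ends it by marking cyclin B and securin for destruction. In a dividing tumor such RNAs are carried mainly by the cells in G2 and mitosis, so their level in bulk RNA follows the share of such cells as well as the RNA of each. Here fewer cells in a phase and less RNA per cell cannot be told apart.

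Values are listed as RPKM, by definition the reads of a gene relative to its length and to sequencing depth. Such a measure is meant for setting levels beside each other between genes. How these values were made from counts is not given. The counts and depths behind them are unknown, so no interval for counting error is given and the spread between tumors is the measure of precision. RPKM summed to 675516 to 788919 in 5 tumors and to 1932926 in deficient tumor 1, where Xist took most of the sum and 692853 was left without it. Median-ratio size factors ran from 0.822 in sufficient tumor 3 to 1.16 in deficient tumor 2. The microRNA gene, Mir146, was listed at 0 in all 6 tumors and could not check the genotypes. The Y-linked gene Ddx3y was at 0.130 RPKM in deficient tumor 1 and at 24.6 RPKM in deficient tumor 2. In the sufficient tumors it was at 17.9 to 23.0 RPKM. Xist was listed at 1240070 RPKM in deficient tumor 1 and at 1819 RPKM in deficient tumor 2, against 1585 to 2203 RPKM in the sufficient tumors. In both genes deficient tumor 2 was like the tumors labelled male, so its female label is in doubt. All 8 of 8 B-cell markers were present in every tumor, with summed RPKM of 2299 and 1380 in the deficient tumors, against 1329 to 2049 in the sufficient tumors. T-cell markers summed to no more than 66.1 RPKM, and the 4 thymic epithelial markers to 0.758 and 1.91 RPKM in the deficient thymic tumors, 0.0106 and 0.0641 RPKM in the neck nodes and 0.548 and 0.555 RPKM in the thymic sufficient tumors. Of these, Foxn1 and Psmb11 were at or near 0 in every tumor, while Krt8 was at 0.371 to 1.64 RPKM in the thymic tumors and at 0 and 0.0525 RPKM in the neck nodes.

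The mitosis genes were strongly expressed in every tumor. Their values lay between 5.53 RPKM, for Prc1 in sufficient tumor 4, and 313 RPKM, for Mki67 in deficient tumor 2. All 34 stood above the median of the tested genes in mean level, and 7 were in the top 10%. The median of their mean levels was 35.3 RPKM, against 7.76 RPKM over all tested genes. Mki67 was the most abundant with a mean of 184 RPKM over 6 tumors, followed by Top2a at 99.6 RPKM and Ccna2 at 74.9 RPKM, and Prc1 was the least at 10.9 RPKM. The highest tumor exceeded the lowest by 1.22 times for Birc5 and by 3.33 times for Mki67, with a median of 1.75 times, and the median coefficient of variation was 21.5%, against 26.9% over all tested genes.

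What these genes share beyond their role was looked for in their promoters, since most ran together between tumor sites. RefSeq promoter windows on GRCm38.p6, from 250 bases before to 50 bases after each start, were given for 29 of the members, with 30 windows in all. The letters TTTGAA, the core of the cell cycle genes homology region, occurred on either strand in 23 of 30 windows, or 76.7%, against 17.9% of all 32851 windows. Between 60 bases before and 50 bases after the start, where this element lies in known cell cycle promoters, they occurred in 21 of 30 windows, or 70.0%, against 5.50% of all windows. The letters CCAAT occurred on either strand in 76.7% of member windows and 37.4% of all windows, and both motifs stood together in 66.7% and 6.95%. The 2 motifs can overlap by 1 end base, and each was counted on its own. The following stretches are shown as examples of TTTGAA near the start of members described below. Each is printed along the gene's strand with the motif in capitals, and the position of its first letter is counted with the start as base 1.
Plk1, chr7:122159454-122159481, plus strand, first letter at 31: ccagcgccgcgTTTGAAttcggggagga
Cenpf, chr1:189688068-189688095, minus strand, first letter at 3: gcggcgggcagTTTGAAtcgctcgtgct
Kif23, chr9:61946781-61946808, minus strand, first letter at 3: tgattggcctgTTTGAAatgcgccgggc
Cenpa, chr5:30666891-30666918, plus strand, first letter at 17: gcgggtgatttTTTGAActgctggcgac
Cdc20, chr4:118437345-118437372, minus strand, first letter at -18: gacagttgggtTTTGAAggagccaatga
Hmmr, chr11:40733413-40733440, minus strand, first letter at 9: gttgaggtaaaTTTGAAttcaggcgagc
In Kif23 a CCAAT on the opposite strand begins 7 bases before the start and stands within the printed stretch as attgg, and in Cdc20 a CCAAT begins 8 bases before it and stands in the printed stretch as ccaat. A match is a run of letters and no evidence that a factor binds there. Cenpa is shown because it holds the same letters as the rest and had the opposite sign between tumor sites, and Hmmr because its fold change between the genotypes was negative, though the groups overlapped.

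Across all 6 tumors, no mitosis gene passed the test between miR-146a-deficient and miR-146a-sufficient tumors. With limma on log2(RPKM + 1) and Benjamini-Hochberg adjustment, 0 of 34 had an adjusted p under 0.05, where 0.0627% of all tested genes did, and 0 of 34 had an unadjusted p under 0.05, where 3.62% did, 2.88% higher and 0.737% lower. Adjusted p-values ran from 0.893 to 0.997 and standard errors from 0.19 to 0.38 on the log2 scale. The log2 fold change, deficient minus sufficient, was positive in 26 members and negative in 8, with a range of -0.36 to 0.72. Its median was 0.09 over the members and 0.13 over all tested genes, of which 67.6% were positive. After median-ratio scaling the members' median was -0.08, with 14 positive and 20 negative, beside a median of -0.01 over all tested genes. Leaving out deficient tumor 1 gave a median of -0.01, and leaving out sufficient tumor 4 gave -0.0027, in both cases with 17 positive and 17 negative. The deficient tumors did not overlap with the sufficient tumors in 1 member, Cenpf, which was higher, where 9.15% of all tested genes were, and in 0 members that were lower, where 2.09% were. An exact two-sided permutation test of 2 tumors against 4 has 15 splits and cannot give a p below 1 in 15. The smallest p it gave among the members was 0.133.

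The 4 sufficient tumors were themselves split by site. The lowest tumor of the 6 was a thymic sufficient tumor for 28 of 34 members, sufficient tumor 4 for 16 and sufficient tumor 3 for 12, where 55.2% of all tested genes had their lowest value in one of the pair. The highest tumor was a neck node for 22 of 34 members, against 27.2% of all tested genes, and a deficient tumor for 10 of 34, against 44.9%. Summed over the 34 genes, the level was 1496 and 1449 RPKM in the deficient thymic tumors, 1523 and 1597 RPKM in the neck node sufficient tumors and 1159 and 1043 RPKM in the thymic sufficient tumors. In this sum the deficient thymic tumors lay above the sufficient tumors of their own site and below the neck nodes. After median-ratio scaling the sums were 1460 and 1246 RPKM in the deficient tumors, 1522 and 1541 RPKM in the neck nodes, and 1410 and 1020 RPKM in the thymic sufficient tumors, so deficient tumor 2 then lay between the last pair. After scaling a thymic sufficient tumor was the lowest for 22 of 34 members, against 37.1% of all tested genes. Sufficient tumor 4 was the lowest for 20, where 20.1% of all tested genes had their lowest value, sufficient tumor 3 for 2, and deficient tumor 2 for 12, against 5 before scaling.

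**Figure D1:**
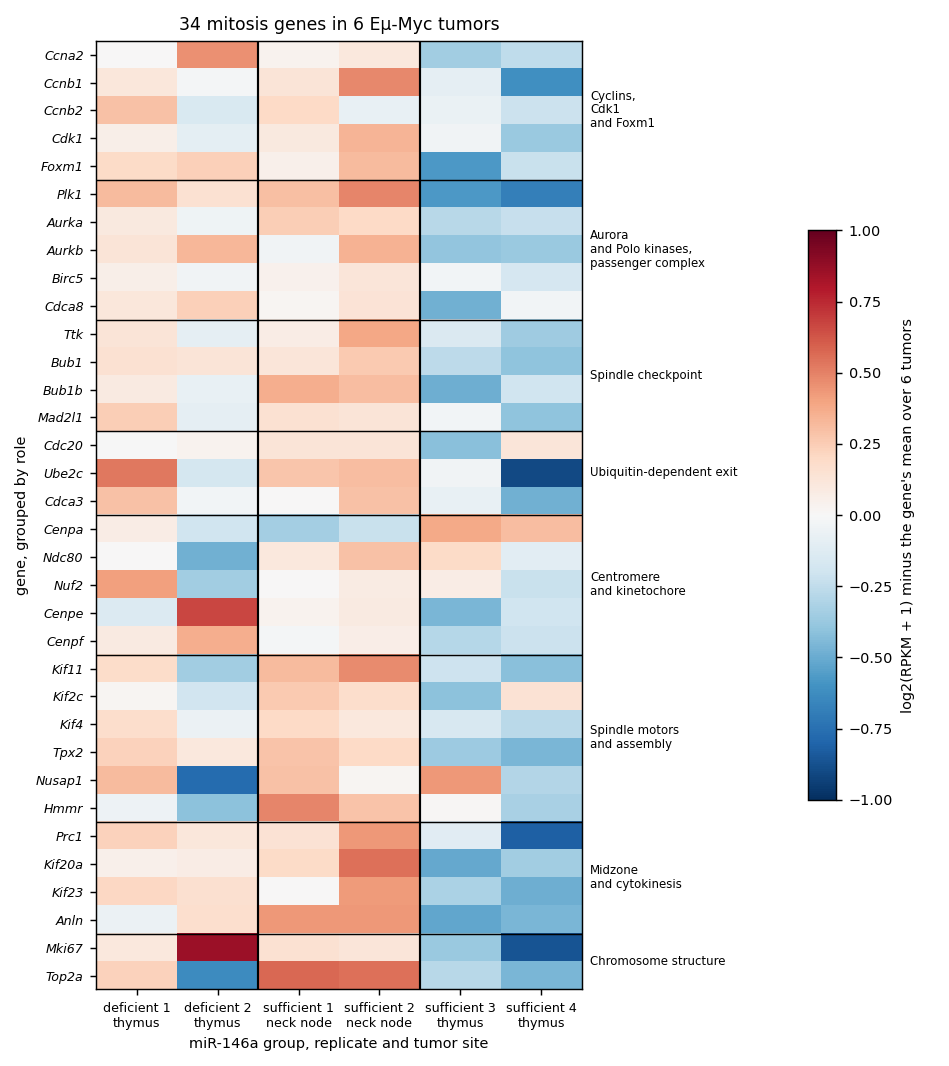
Level of each of the 34 mitosis genes (rows, grouped by role) in each of the 6 tumors (columns) as log2(RPKM + 1) minus the gene's mean over the tumors, red above and blue below. The columns of sufficient tumors 3 and 4 are mostly blue, those of the neck nodes mostly red, and Cenpa runs the other way.

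Among the cyclins, their kinase and their transcription factor, the deficient tumors overlapped with the sufficient tumors in 5 of 5 genes. Ccna2, cyclin A2, which acts in S phase and early mitosis, was at 74.0 and 102 RPKM in the deficient tumors, against 75.5 and 79.1 RPKM in the neck nodes and 57.6 and 61.7 RPKM in the thymic sufficient tumors. Deficient tumor 2 stood above all others while deficient tumor 1 lay just below the neck nodes (log2 fold change deficient minus sufficient 0.35 ± 0.23, standard error, limma adjusted p = 0.893). Foxm1, the transcription factor that drives many of these genes in G2, was at 19.0 and 19.6 RPKM in the deficient tumors, against 17.1 and 20.8 RPKM in the neck nodes and 10.7 and 14.0 RPKM in the thymic sufficient tumors. The deficient tumors were within the neck node range and above both sufficient tumors of the thymus (0.32 ± 0.27, adjusted p = 0.893). Cdk1, the kinase that starts mitosis, was at 49.7 and 44.5 RPKM in the deficient tumors, against 51.1, 60.7, 46.4 and 36.7 RPKM in sufficient tumors 1 to 4, so that the deficient tumors lay below both neck nodes and overlapped with the thymic sufficient tumors. Its activators cyclin B1 and B2 lay close to it: Ccnb1 was at 36.2 and 33.0 RPKM in deficient tumors and 21.5 to 47.0 RPKM in sufficient tumors, and Ccnb2 at 76.1 and 55.7 RPKM and 53.2 to 71.3 RPKM in the same order. Over the 5 genes the deficient minus sufficient log2 fold change ran from -0.03 to 0.35.

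Plk1 had the smallest p of all members between the sites. This Polo-like kinase, needed for centrosome maturation and mitotic entry and encoded at chr7:122159439-122169873 on GRCm38, was at 46.9 and 41.8 RPKM in the deficient thymic tumors, 46.6 and 53.2 RPKM in the neck nodes and 24.8 and 23.0 RPKM in the thymic sufficient tumors. Both thymic sufficient tumors were thus low, and the other 4 tumors lay together. Aurkb, the kinase of the chromosomal passenger complex, which corrects wrong attachments, was at 41.9 and 48.3 RPKM in the deficient tumors, against 37.2 and 48.8 RPKM in the neck nodes and 28.7 and 29.2 RPKM in the thymic sufficient tumors. The thymic sufficient pair was again the lowest (0.35 ± 0.26 for deficient minus sufficient, adjusted p = 0.893). Cdca8, or borealin, a subunit of that complex, was at 24.7 and 26.9 RPKM in the deficient tumors, against 23.0, 25.0, 16.0 and 22.2 RPKM in sufficient tumors 1 to 4, and overlapped by one neck node (0.27 ± 0.23, adjusted p = 0.893). Birc5, survivin, another subunit, varied least of all members, at 37.8 and 35.3 RPKM in deficient tumors and 32.2 to 39.3 RPKM in sufficient tumors. Aurka, the Aurora kinase of the spindle poles, was at 21.5 and 19.5 RPKM in deficient tumors, within the 16.4 to 23.9 RPKM of the sufficient tumors.

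The checkpoint genes were Bub1, Bub1b, Ttk and Mad2l1. Bub1, a kinase at the kinetochore, was at 23.6 and 23.2 RPKM in the deficient tumors, against 23.1 and 25.5 RPKM in the neck nodes and 17.4 and 15.7 RPKM in the thymic sufficient tumors. Bub1b, which encodes the BubR1 inhibitor of the anaphase-promoting complex, was at 65.5 and 58.1 RPKM, against 79.3 and 76.4 RPKM and 43.5 and 53.5 RPKM in the same order of groups. Before scaling, the deficient tumors lay within the neck node range for Bub1 and below it for Bub1b. For each they then lay above both sufficient tumors of the thymus. With the size factors, 1.16 in deficient tumor 2 and 0.822 in sufficient tumor 3, the first no longer lies above the second. Ttk, the Mps1 kinase that starts checkpoint signaling, was at 20.5 and 17.4 RPKM in deficient tumors and at 14.3 to 24.7 RPKM in sufficient tumors. Mad2l1, Mad2, which holds Cdc20 inactive, was at 63.9 and 50.5 RPKM in deficient tumors and at 40.4 to 59.8 RPKM in sufficient tumors. The 4 genes had deficient minus sufficient log2 fold changes of 0.01 to 0.21.

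The ubiquitin system that ends mitosis was represented by Cdc20 and Ube2c, and Cdca3 was grouped with them. Cdc20, the activator of the anaphase-promoting complex, was at 60.1 and 61.9 RPKM in the deficient tumors, against 66.1, 65.9, 44.8 and 65.8 RPKM in sufficient tumors 1 to 4. Sufficient tumor 3 alone was low, and the other 5 tumors differed by little. Ube2c, the conjugating enzyme of the same complex, was at 57.8 and 35.3 RPKM in the deficient tumors, against 48.4, 49.5, 38.9 and 20.8 RPKM in sufficient tumors 1 to 4. Here sufficient tumor 4 was the low one, and deficient tumor 1 the highest. Cdca3, which has been tied to the destruction of the Cdk1 inhibitor Wee1, was at 46.6 and 37.1 RPKM in deficient tumors and at 26.8 to 46.6 RPKM in sufficient tumors.

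Centromere and kinetochore genes went in both directions, 3 of 5 with a positive and the rest with a negative fold change between the genotypes. Cenpf, a large protein of the outer kinetochore encoded at chr1:189640606-189688086 on GRCm38, was at 15.5 and 19.0 RPKM in the deficient tumors, against 14.3 and 15.3 RPKM in the neck nodes and 11.8 and 12.4 RPKM in the thymic sufficient tumors. Both deficient tumors were above all 4 sufficient tumors, deficient tumor 1 narrowly (0.34 ± 0.21, adjusted p = 0.893, exact permutation p = 0.133). This permutation p was the smallest among the members but not the smallest possible, since another split of the tumors differed at least as much. Cenpe, the kinesin that carries chromosomes to the spindle equator, was at 16.7 and 29.8 RPKM in the deficient tumors, against 18.8, 19.6, 13.1 and 15.9 RPKM in sufficient tumors 1 to 4. The difference rested on deficient tumor 2 (0.40 ± 0.28, adjusted p = 0.893), and without it the log2 fold change was -0.0005. Ndc80, the microtubule-binding core of the kinetochore, was at 22.4 and 15.7 RPKM in the deficient tumors, against 24.1, 27.5, 25.6 and 20.6 RPKM in sufficient tumors 1 to 4. Deficient tumor 2 was the lowest of all and deficient tumor 1 lay above sufficient tumor 4 (-0.36 ± 0.23, adjusted p = 0.893). Nuf2, the partner of Ndc80 in that complex, was at 38.4 and 22.3 RPKM in the deficient tumors, against 28.7, 30.3, 30.1 and 24.4 RPKM in sufficient tumors 1 to 4, so the deficient pair held both its highest and its lowest value. Cenpa, the histone variant that marks the centromere, was at 49.4 and 40.8 RPKM in the deficient tumors, against 36.8 and 40.1 RPKM in the neck nodes and 61.2 and 58.5 RPKM in the thymic sufficient tumors. It was the member for which both thymic sufficient tumors were highest.

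Of the 8 members with a negative fold change between the genotypes, 4 were spindle motors and assembly factors. Kif11, the motor that pushes spindle poles apart, was at 64.8 and 44.7 RPKM in the deficient tumors, against 71.4 and 79.5 RPKM in the neck nodes and 49.3 and 42.5 RPKM in the thymic sufficient tumors. Nusap1, which bundles spindle microtubules, was at 43.9 and 20.2 RPKM in the deficient tumors, against 43.2, 35.7, 47.7 and 28.4 RPKM in sufficient tumors 1 to 4. Its pair of deficient tumors differed by 1.08 on the log2 scale, more than any other member, and the fold change of -0.34 ± 0.33 (adjusted p = 0.893) turned to 0.20 without deficient tumor 2. Hmmr, a hyaluronan receptor that also acts on the spindle, was at 15.3 and 11.7 RPKM in the deficient tumors, against 22.7, 19.6, 16.0 and 12.5 RPKM in sufficient tumors 1 to 4. Deficient tumor 1 overlapped with the sufficient tumors by way of sufficient tumor 4 (-0.35 ± 0.27, adjusted p = 0.893), and among thymic tumors alone the fold change was -0.07. Tpx2, which activates Aurora A and nucleates microtubules, was at 35.4 and 32.4 RPKM in the deficient tumors. It was at 36.9 and 34.7 RPKM in the neck nodes and 23.2 and 21.7 RPKM in the thymic sufficient tumors. Before scaling, Tpx2 had the same low pair as Plk1. Kif2c, a microtubule depolymerase, and Kif4, a motor on chromosome arms, were at 15.2 and 12.9 RPKM (Kif2c) and 13.7 and 11.6 RPKM (Kif4) in the deficient pair, within the 11.0 to 18.1 RPKM and 9.87 to 14.0 RPKM of the sufficient tumors.

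The midzone and cytokinesis genes were the role in which every member was lowest in both thymic sufficient tumors. Kif20a, a kinesin of the central spindle, was at 45.2 and 45.8 RPKM in the deficient tumors, against 49.7 and 64.1 RPKM in the neck nodes and 30.3 and 33.9 RPKM in the thymic sufficient tumors. Kif23, the motor subunit of centralspindlin, was at 35.3 and 34.3 RPKM in the deficient tumors, against 30.7 and 41.5 RPKM in the neck nodes and 24.4 and 21.5 RPKM in the thymic sufficient tumors. In both genes the deficient pair was tight and, before scaling, the thymic sufficient pair lay below it. Anln, the actin-binding scaffold of the contractile ring, was at 10.2 and 12.2 RPKM in the deficient tumors, against 14.9 and 14.9 RPKM in the neck nodes and 7.20 and 7.54 RPKM in the thymic sufficient tumors. Prc1, which bundles the antiparallel microtubules of the midzone, was at 12.6 and 11.5 RPKM, against 11.8 and 14.6 RPKM and 9.67 and 5.53 RPKM in the same order of groups. The deficient tumors exceeded both thymic sufficient tumors in 4 of 4 of these genes, where 32.5% of all tested genes did. The neck nodes also did so in 4 of 4, where 27.9% did. These are values before scaling, and sufficient tumor 3 had the lowest size factor, 0.822.

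Mki67, the proliferation marker Ki-67 that coats mitotic chromosomes, is encoded at chr7:135689784-135716361 on GRCm38. It was at 185 and 313 RPKM in the deficient tumors, against 192 and 188 RPKM in the neck nodes and 134 and 94.2 RPKM in the thymic sufficient tumors. Deficient tumor 2 was highest by far and deficient tumor 1 lay just below the neck nodes, so the groups overlapped (0.72 ± 0.35, adjusted p = 0.893; exact permutation p = 0.267). This was the largest fold change among the members, and without deficient tumor 2 or any other single tumor it lay between 0.34 and 1.10. Top2a, the topoisomerase that untangles sister chromatids, was at 111 and 60.7 RPKM in the deficient tumors, against 141 and 139 RPKM in the neck nodes and 77.8 and 68.5 RPKM in the thymic sufficient tumors. Deficient tumor 2 was thus the highest tumor for Mki67 and the lowest for Top2a.

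**Figure D2:**
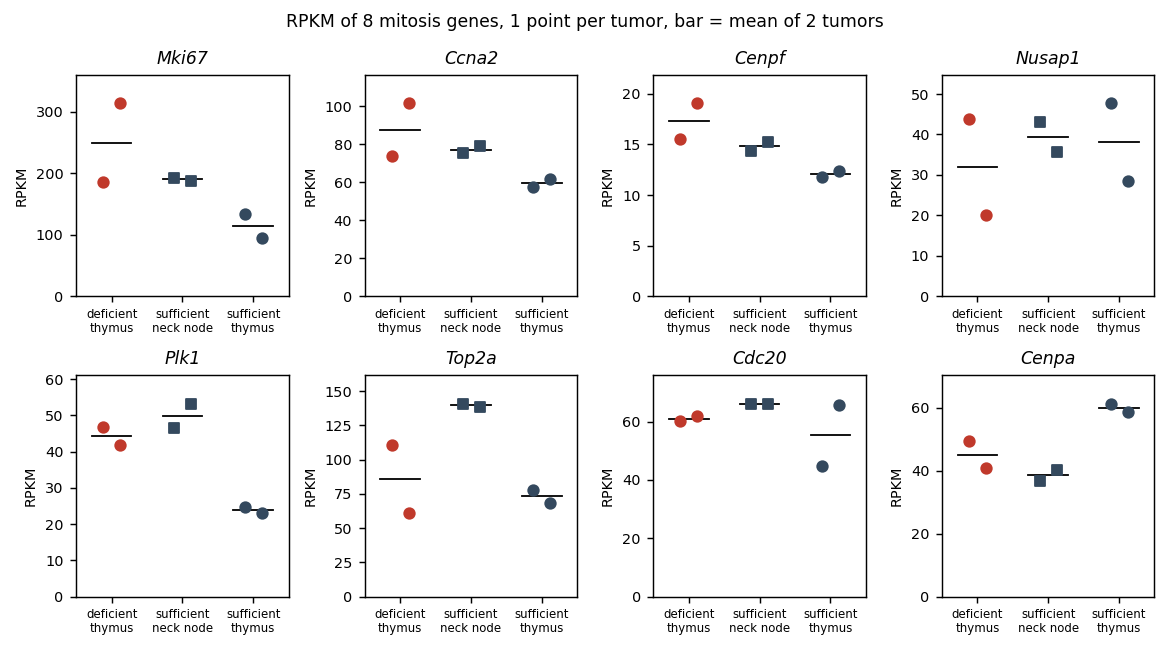
RPKM of 8 mitosis genes, with a point for each tumor and a bar at the mean of the pair, for deficient thymic tumors (red circles), neck node sufficient tumors (dark squares) and thymic sufficient tumors (dark circles). Plk1 is at 23.0 to 24.8 RPKM in the thymic sufficient tumors and at 41.8 RPKM or more elsewhere, Cenpa is highest in the thymic sufficient tumors, and the deficient pair is spread widely for Mki67 and Nusap1.

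The deficient tumors also differed from each other. Deficient tumor 2 was higher than deficient tumor 1 in 10 of 34 members and lower in 24, while 59.3% of all tested genes were higher in it. The median log2 difference, tumor 2 minus tumor 1, was -0.15 over the members and 0.11 over all tested genes. In size the differences within the pair had a median of 0.23, against 0.12 between the neck nodes and 0.24 between the thymic sufficient tumors, and over all tested genes the medians were 0.32, 0.27 and 0.35. Cenpe, Mki67 and Ccna2 were the members furthest above in deficient tumor 2, and Nusap1, Top2a and Nuf2 those furthest below.

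With the comparison held to thymic tumors, 2 deficient and 2 sufficient, again 0 of 34 members passed the test (limma, adjusted p 0.662 to 0.959), where 0.0244% of 12286 tested genes did. Unadjusted p was under 0.05 in 3 members, all higher in the deficient tumors. Over all tested genes 7.28% were under 0.05, 5.15% higher and 2.12% lower. The 3 members, named here after their values were seen, were Mki67 with a log2 fold change of 1.10 ± 0.35, Plk1 with 0.86 ± 0.25 and Aurkb with 0.62 ± 0.25, each with an adjusted p of 0.662. The fold change was positive in 30 members and negative in 4, which were Cenpa, Ndc80, Nusap1 and Hmmr, while 68.9% of all tested genes were positive. The members' median was 0.37, against 0.19 over all tested genes, and 20 members were higher in both deficient tumors than in both sufficient tumors, where 32.5% of all tested genes were. In 1 member, Cenpa, both were lower, where 10.5% were. After median-ratio scaling 0 of 34 had an unadjusted p under 0.05, 22 were positive and 12 negative, the median was 0.13, beside -0.01 over all tested genes, and 10 members were higher without overlap, where 18.3% were. Leaving out each thymic tumor in turn gave medians of 0.26 to 0.43 and Mki67 fold changes of 0.72 to 1.47. Without deficient tumor 1 the members' median was 0.26, beside 0.25 over all tested genes. Without sufficient tumor 4 it was 0.29, beside 0.30, so in these fits the members shifted about as much as all tested genes. Without sufficient tumor 3 it was 0.39, beside 0.08, and without deficient tumor 2 it was 0.43, beside 0.13. Exact permutation tests cannot go below 0.333 with 2 against 2.

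Within the sufficient genotype nearly all of these genes were higher in the neck nodes than in the thymic tumors. Neck node minus thymus, the log2 fold change was positive in 33 of 34 members, where 61.0% of all tested genes were positive, and it had a median of 0.48, against 0.10 over all tested genes. None reached an adjusted p under 0.05 (0 of 34, limma, adjusted p 0.427 to 0.952), where 0.155% of 12255 tested genes did. At an unadjusted p under 0.05, 9 members were higher in the neck nodes, where 5.21% of all tested genes were, and 1 was lower, where 2.65% were and 7.87% either way. The total of 10 became 6 after median-ratio scaling, 4 without sufficient tumor 1 and 2 without sufficient tumor 2. Plk1 had the smallest p, with a fold change of 1.03 ± 0.23 on the log2 scale (adjusted p = 0.427). Next came Top2a (0.93 ± 0.23, adjusted p = 0.508), Anln (0.92 ± 0.24, adjusted p = 0.548), Kif20a (0.80 ± 0.25, adjusted p = 0.584) and Kif11 (0.71 ± 0.23, adjusted p = 0.595), all by limma. Both neck nodes exceeded both thymic tumors in 29 of 34 members, where 27.9% of all tested genes did, and both lay below them in 1, Cenpa (-0.63), where 12.6% did.

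Scaling reduced the median difference between sites without turning its sign. After median-ratio scaling the median was 0.34, with 31 positive and 3 negative, and 18 members were higher without overlap, where 19.3% of all tested genes were. Leaving out each sufficient tumor in turn, without scaling, gave medians of 0.40 to 0.56, beside -0.01 to 0.23 over all tested genes. Without sufficient tumor 4 the members' median was 0.44 and that of all tested genes 0.23. Without sufficient tumor 3 these medians were 0.54 and -0.01. By role the median neck node minus thymus fold change was highest for chromosome structure (0.84, 2 genes) and for the midzone and cytokinesis genes (0.78, 4 genes), and lowest for centromere and kinetochore genes (0.16, 5 genes). The neck node and thymic mice also differed in age, 18 and 16 weeks against 10 weeks, which cannot be told apart from site. Neutrophil markers moved with site as well: all 7 of 7 were higher in both neck nodes, with summed RPKM of 1586 and 1615 in the neck nodes, against 232 and 200 in the thymic sufficient tumors, and the part of these cells in the difference was not tested. The macrophage sums, carried mostly by Lyz2, overlapped between the sites (318 and 160 RPKM in neck nodes, 151 and 270 RPKM in thymic tumors). Of the 9 markers 5 (C1qa, C1qb, C1qc, Apoe and Mrc1) were lower in both neck nodes, where 12.6% of all tested genes were. In 1 (Cd68) both were higher, where 27.9% were. The part of macrophages was not tested.

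**Figure D3:**
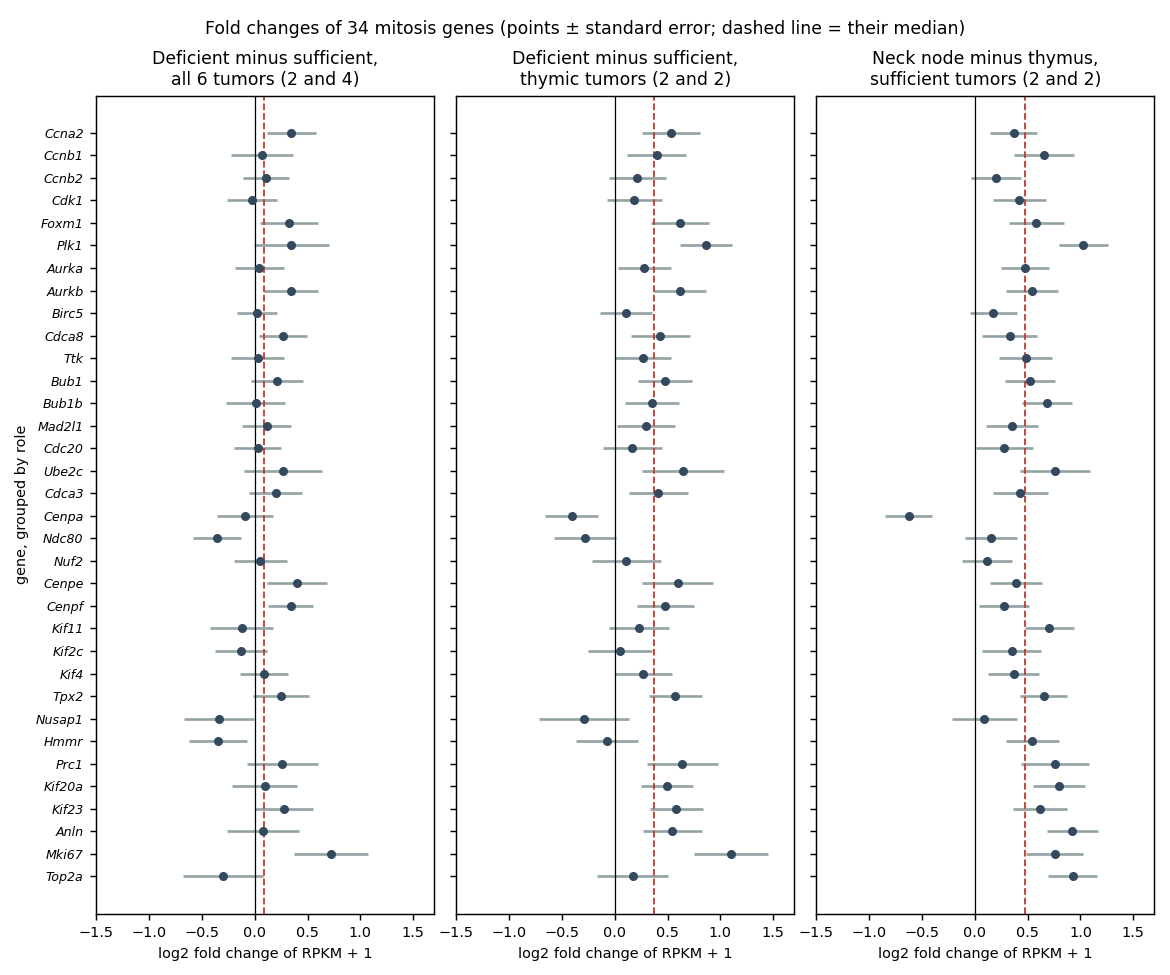
Log2 fold change of RPKM + 1 with its standard error for each member, grouped by role, in the comparison of deficient with sufficient tumors over all 6 tumors (left), among thymic tumors (middle) and of neck nodes with thymic tumors in the sufficient genotype (right). The dashed medians are 0.09, 0.37 and 0.48. The middle and right panels share sufficient tumors 3 and 4.

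Both shifts were measured against sufficient tumors 3 and 4, which the comparisons share, so the members' values in one do not check the other. For Plk1 the fold change was 0.86 for deficient against sufficient thymic tumors and 1.03 for neck nodes against thymic tumors. Top2a had 0.17 and 0.93 in the same order, and Cenpa -0.41 and -0.63. Neutrophil markers were at 106 and 269 RPKM in the deficient tumors, near the 232 and 200 RPKM of the thymic sufficient tumors, and macrophage markers were at 277 and 375 RPKM in the deficient and 151 and 270 RPKM in the thymic sufficient tumors. Of the 9 macrophage markers 6 were higher in both deficient tumors than in both thymic sufficient tumors, before scaling. Of all tested genes 32.5% were so before scaling and 18.3% after it. The part of macrophages in the difference was not tested.

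**Figure D4:**
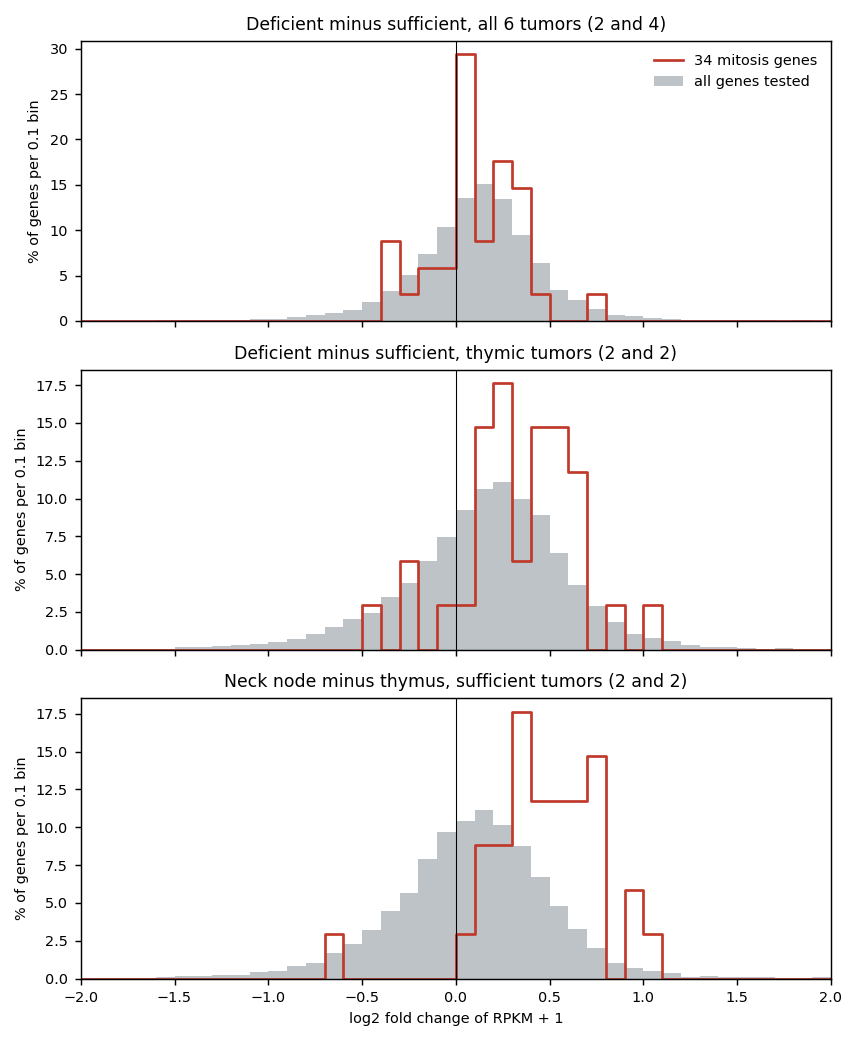
Share of genes in bins of 0.1 of log2 fold change, for the 34 mitosis genes (red line) and for all genes tested (grey bars), in the same 3 comparisons. The members' medians were 0.09, 0.37 and 0.48, beside 0.13, 0.19 and 0.10 over all genes; Mki67 lies furthest right in the upper and middle panels and Cenpa furthest left in the lower.

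Other genes of the same processes were taken as a list of 100, with further kinesins, centromere proteins, subunits of the anaphase-promoting complex and condensins, and Myb and DREAM components. All 100 were tested and 0 passed in any comparison, whether between genotypes over all 6 tumors, between genotypes in the thymus or between sites. Deficient minus sufficient, 77 were positive and 23 negative with a median of 0.16, where 67.6% of all tested genes were positive, and 0 had an unadjusted p under 0.05. Those with the smallest p were Trip13, a checkpoint ATPase, at 28.6 and 34.2 RPKM in deficient and 18.5 to 27.9 RPKM in sufficient tumors (0.48 ± 0.22, limma adjusted p = 0.893), Cenpn and Depdc1a. Both deficient tumors exceeded all 4 sufficient tumors for Trip13, Cenpn and Depdc1a, where 9.15% of all tested genes did so. These genes were picked by p, and how many of the 100 lay without overlap was not counted. The centromere protein Cenpn was at 28.5 and 35.6 RPKM in deficient tumors, above the 21.6 to 25.3 RPKM of the sufficient tumors (0.39 ± 0.20, adjusted p = 0.893). Depdc1a was at 12.5 and 19.6 RPKM in deficient tumors, above the 10.1 to 11.8 RPKM of the sufficient tumors (0.47 ± 0.23, adjusted p = 0.893). Among thymic tumors the list's median was 0.31, with 81 positive and 8 at an unadjusted p under 0.05, all higher in the deficient tumors, where 68.9% of all tested genes were positive and 5.15% were under that p and higher. Neck node minus thymus it was 0.30, with 80 positive, and at that unadjusted p 10 were higher and 1 lower in the neck nodes, where 61.0% of all tested genes were positive, 5.21% higher and 2.65% lower.

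Few of the members carry a match to the missing microRNA. A microRNA pairs through its seed with sites in 3′UTRs and lowers the RNAs that hold them. The mature form, from RefSeq at chr11:43374435-43374456 on the minus strand of GRCm38.p6, is shown with its seed, bases 2 to 8, in capitals.
mmu-miR-146a-5p: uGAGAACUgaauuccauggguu
A match to bases 2 to 8 (AGTTCTC), or to bases 2 to 7 followed by A (GTTCTCA), stood in the longest annotated 3′UTR of 4 of 34 members, or 11.8%, against 1986 of 9950 tested genes, or 20.0%. These were Cdk1, Ccna2, Birc5 and Ube2c, for each of which a site is shown with the match in capitals; coordinates are those of the match on GRCm38 (GENCODE M21).
Cdk1 site, chr10:69335733-69335739, minus strand: ctaggcaggAGTTCTCaaccagcct
Ccna2 site, chr3:36565492-36565498, minus strand: ttagttagcAGTTCTCttcttcttc
Birc5 site, chr11:117853947-117853953, plus strand: tttaaattaAGTTCTCtaatctgtg
Ube2c site, chr2:164778709-164778715, plus strand: gcctcagacAGTTCTCagaggcaag
The deficient minus sufficient log2 fold changes of these genes were -0.03 for Cdk1, 0.35 for Ccna2, 0.02 for Birc5 and 0.27 for Ube2c, within the range of the other members.

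Some values could be off where genes overlap, since the library kit does not mark strand. Reads in shared bases could be counted for the wrong gene or left uncounted, and which was done is not given. In the GENCODE M21 annotation 11 of 34 members share exon bases with another gene, 9 of them with a gene on the opposite strand. The longest overlaps are of Kif20a with Cdc23 (1271 bases), Prc1 with Rccd1 (911 bases) and Kif4 with Pdzd11 (832 bases). The pseudogene Ccnb2-ps was listed at 2.76 and 2.23 RPKM in the deficient tumors and at 1.85 to 3.21 RPKM in the sufficient tumors, far below Ccnb2 itself.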

How the data were processed

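RNA of 6 tumors was sequenced from TruSeq v2 libraries with single-end reads. The authors aligned reads to GRCm38 with STAR 2.3.0, counted them per Ensembl gene with HTSeq 0.5.4p3, scaled by geometric means and tested counts with DESeq (1.12.1 per the submitters' processing notes). The deposited table holds 1 RPKM value per gene and tumor. How RPKM was made from the counts, and how the technical replicates of each tumor were merged, is not given in the sources used here. Low values showed no clear steps of whole reads, so depth is unknown and no count model was run.

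RPKM was tested as log2(RPKM + 1) with limma 3.58.1 (trend, R 4.3.3) on the 12751 genes at 0.5 RPKM or more in at least 2 tumors, with Benjamini-Hochberg adjustment over all of them and a threshold of 0.05. The same filter within 4 tumors left 12286 and 12255 genes. Fold changes are therefore on the log2(RPKM + 1) scale. The fit was tested on simulated data. Exact two-sided permutation tests of the difference in means were run over the 15 splits of 2 against 4 tumors, or the 6 splits of 2 against 2. Nothing says that same-numbered tumors of the 2 groups are paired. The tumors come from separate mice. Values in full are given for the 10 members with the smallest p between genotypes, the 5 between sites and 3 other mitosis genes; the rest are given by tumor. The members and lists were chosen with earlier results of these data known. Alternatives changed the filter, pseudocount, scaling, prior, threshold, tumors included, site and replicate block. Promoter windows lacked Ccna2, Aurkb, Foxm1, Tpx2 and Kif20a. The annotation used for 3′UTRs and gene positions, GENCODE M21, is more recent than the authors' own.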

Additional observations from a re-analysis of the deposited data

Results flagged for a closer look

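Cdc20 was the 1 member of the 34 for which a tumor stood far from the rest of its group of 4 sufficient tumors. Sufficient tumor 3 was at 44.8 RPKM, against 65.8 to 66.1 RPKM in sufficient tumors 1, 2 and 4, a gap that takes 0.984 of the group's whole range. The rule behind this flag picks out about 1 in 20 groups by chance, and 34 members were looked at. How often chance gives a gap as large as this is not given here.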

How the results depend on the processing

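No member passed the threshold of 0.05 under any of 22 alternatives between genotypes or 9 between sites, and 0 of the 100 other mitosis genes did. The members' median log2 fold change, deficient minus sufficient, was 0.09 over all 6 tumors, 0.37 when only the thymic tumors were used and 0.37 with the site as a covariate. In thymic tumors only it was 0.39 without sufficient tumor 3 and 0.43 without deficient tumor 2, beside 0.08 and 0.13 over all tested genes. It was 0.29 without sufficient tumor 4 and 0.26 without deficient tumor 1, beside 0.30 and 0.25. Leaving out each of the 6 tumors gave -0.01 to 0.20, and quantile normalization gave -0.01. Between sites, leaving out each tumor gave 0.40 to 0.56, beside -0.01 to 0.23 over all tested genes. Of 255 values of named members under an alternative, 6 changed sign and 0 passed the threshold. Hmmr became 0.0935 in thymic tumors without sufficient tumor 3 and 0.11 without deficient tumor 2. Nusap1 became 0.0696 and 0.25 in the same settings and 0.20 over all tumors without deficient tumor 2, with a range of -0.88 to 0.20 when each tumor was left out. Cenpe became -0.0005 without deficient tumor 2, with a range of -0.0005 to 0.80. The cause of these changes was not tested.

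With the replicate number as a block the median was -0.10, with 9 positive and 25 negative and 0 passing. This sets both deficient tumors against the neck nodes alone, and the labels do not pair these tumors. Correlations of same-numbered deviations were 0.0192 and 0.213. Only 2 and 4 tumors, of partly different site and age and of different labelled sex, limit all comparisons, and unknown depth leaves counting error unmeasured.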
